A study of Mus musculus with 8 samples.

Results

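The 10 genes described here encode ligands, receptors, transcription factors and feedback inhibitors of GDNF and RET signalling: *Gdnf*, *Nrtn*, *Artn*, *Ret*, *Gfra1*, *Gfra2*, *Etv4*, *Etv5*, *Spry1* and *Spry2*. They were taken as all rows of the signal table whose gene symbol equalled 1 of these names, which gave 16 of the 25697 probes and 10 of the 18120 gene symbols. The RNA came from glomeruli of FVB/N male mice of 3 weeks of age, 4 Cd151+/+ controls and 4 Cd151-/- mice, and each mouse has its own Illumina MouseRef-8 v1.1 array. The Cd151-/- mice carry a homozygous deletion of the tetraspanin CD151 in all cells, so that the deletion was not limited to podocytes, and both genotypes shared the strain, sex and age. The isolates came from magnetic bead perfusion and can hold tubule fragments beside podocytes, mesangial and endothelial cells. The question addressed was whether the loss of *Cd151* goes with a difference in this pathway in glomeruli at an early stage of disease. The set was chosen from earlier results on these arrays, in which the normalised signal of *Gdnf* differed between the genotypes, so the *Gdnf* difference is given as a description without a test.

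GDNF is a secreted growth factor of the TGF-beta superfamily. It binds the co-receptor GFRα1 on the cell surface, and this complex activates the receptor tyrosine kinase RET, while neurturin and artemin use related co-receptors of the same family. In kidney development GDNF from the metanephric mesenchyme acts on RET at the tips of the ureteric bud and drives branching, with the ETS factors ETV4 and ETV5 induced downstream and the Sprouty proteins SPRY1 and SPRY2 acting as feedback inhibitors. The pathway is also known for the survival and guidance of neurons.

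The targeted gene was checked first. All 3 probes of *Cd151* were above background on each of the 4 Cd151+/+ arrays and on 0 of the 4 Cd151-/- arrays, with the brightest, ILMN_2836710, at least 523-fold lower in the knockouts (Benjamini-Hochberg adjusted p = 6.51e-10 in limma). The array background, which was inferred from the detection p-values, ranged from 59.0 to 135 signal units, and split the arrays into a set of higher background (Cd151+/+ mice 3 and 4, Cd151-/- mice 1 and 2) and a set of lower background (Cd151+/+ mice 1 and 2, Cd151-/- mice 3 and 4). This split was made from the measured background, and each set holds 2 mice of each genotype. The podocyte markers *Podxl*, *Wt1*, *Ptpro* and *Cdkn1c* were detected in all 8 mice, while *Nphs1* and *Synpo* had no row under these names. Between 11291 and 12359 probes were detected per array, their median lying 3.00-fold to 4.46-fold over the background. Precision is limited by this and by having 8 arrays.

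Only *Gdnf* and *Etv5* were detected in every mouse. A probe is called detected on an array when its detection p-value, the share of negative-control probes at least as bright, was 0.05 or lower. By this measure 2 of the 10 genes had a probe detected on all 8 arrays, against 41% of all gene symbols on the platform. A further 4 genes, *Nrtn*, *Artn*, *Ret* and *Etv4*, were detected on some arrays. The remaining 4, *Gfra1*, *Gfra2*, *Spry1* and *Spry2*, were detected on none, against 38% of all symbols. In bulk RNA fewer cells of a type and less RNA per cell cannot be told apart, and a probe that is not detected sets only an upper limit on its transcript.

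**Figure D1:**
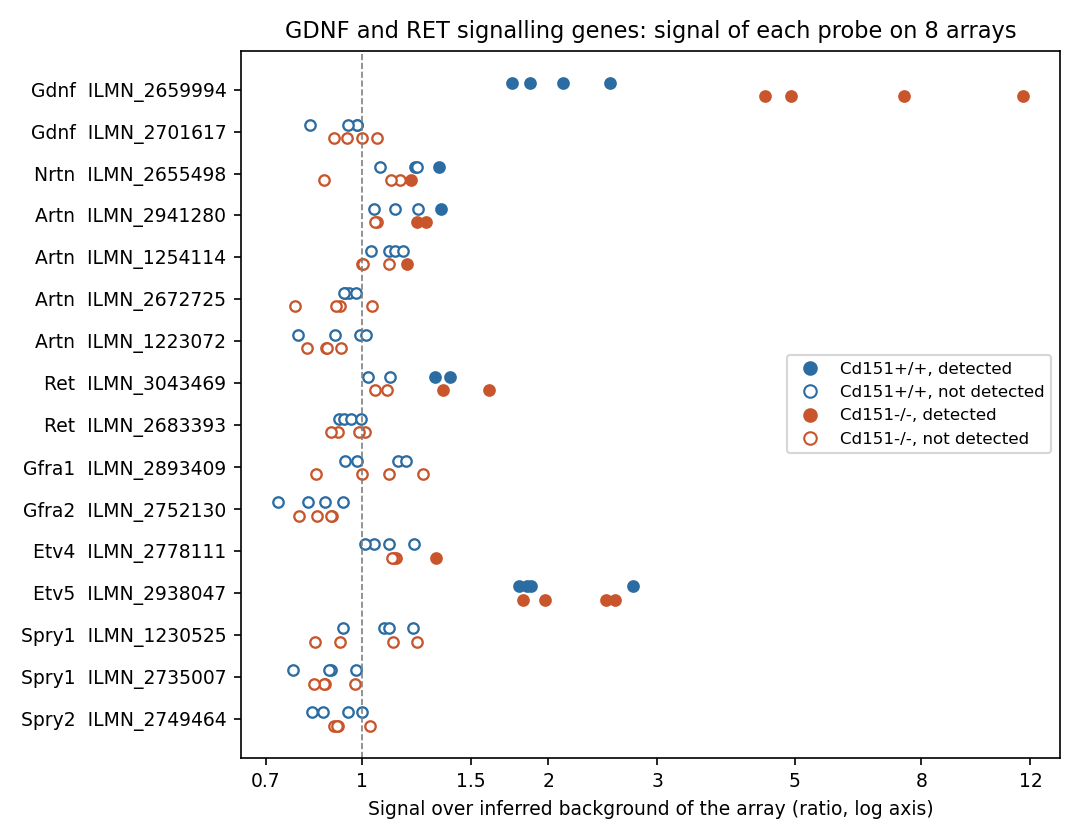
Signal of each of the 16 probes of the 10 genes on each of the 8 arrays, divided by the inferred background of that array (log axis, 1 marked by the dashed line). Filled points are detected at a detection p-value of 0.05 or lower; *Gdnf* ILMN_2659994 (Cd151+/+ mice at 1.75 to 2.52, Cd151-/- mice at 4.47 to 11.7) and *Etv5* (all mice at 1.80 to 2.74) are the only probes filled throughout.

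The upstream sequence of these 2 genes is shown because they are the only ones measured above background in every mouse, and because the files themselves hold no probe sequence. The sequences are from RefSeq on build GRCm38.p6 and give the 250 bases before an annotated start, 5′ to 3′ on the strand of the gene. Of the 10 genes 7 have an entry in that table, with 2 starts each for *Gdnf* and *Etv5*, of which both starts of *Gdnf* and the upstream one of *Etv5* are printed. Capitals mark matches on either strand to the TATA box (TATAAA), the CCAAT box (by these letters), the GC box (GGGCGG), the AP-1 motif (TGACTCA), the E-box (CACGTG) and the cyclic AMP response element (TGACGTCA).
Gdnf, start 1, chr15:7809798-7810047, plus strand: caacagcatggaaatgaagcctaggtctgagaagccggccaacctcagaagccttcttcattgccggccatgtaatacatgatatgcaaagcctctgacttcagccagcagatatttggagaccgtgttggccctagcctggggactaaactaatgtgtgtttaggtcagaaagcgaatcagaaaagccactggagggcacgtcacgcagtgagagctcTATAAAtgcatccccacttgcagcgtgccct
Gdnf, start 2, chr15:7813477-7813726, plus strand: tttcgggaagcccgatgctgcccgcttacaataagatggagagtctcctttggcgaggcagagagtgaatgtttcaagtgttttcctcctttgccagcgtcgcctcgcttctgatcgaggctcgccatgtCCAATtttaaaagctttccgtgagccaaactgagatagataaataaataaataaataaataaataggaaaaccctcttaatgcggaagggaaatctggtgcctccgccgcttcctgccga
Etv5, start 1, chr16:22439571-22439820, minus strand: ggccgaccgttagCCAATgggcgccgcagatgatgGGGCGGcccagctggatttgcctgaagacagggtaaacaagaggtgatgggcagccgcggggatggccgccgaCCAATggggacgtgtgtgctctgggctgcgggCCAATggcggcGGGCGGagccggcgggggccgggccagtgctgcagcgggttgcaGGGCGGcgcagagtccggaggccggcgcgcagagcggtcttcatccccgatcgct
The window before the first *Gdnf* start holds 1 TATAAA match, which 12.4% of all 32851 windows of this length hold, and has a GC content of 50.8%. That before the second start holds 1 CCAAT match (33.8% of all windows) at a GC content of 46.8%. The printed *Etv5* window holds 3 CCAAT and 3 GGGCGG matches, where 32.7% of all windows hold at least 1 GGGCGG match. Its GC content is 71.2%, against a median of 52.4% over all windows. None of the 3 windows holds the AP-1 motif, the E-box or the cyclic AMP response element, which occur in 4.46%, 6.02% and 1.55% of all windows. A match describes the letters of the window and is not a measured site.

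*Gdnf*, the ligand for which the pathway is named, was higher in the glomeruli of Cd151-/- mice. At probe ILMN_2659994 the deposited signal was 121.8, 148.5, 261.0 and 224.7 in Cd151+/+ mice 1 to 4, and 1011, 1506, 310.4 and 338.8 in Cd151-/- mice 1 to 4. These signals are unnormalised and hold the background of each array, which differed between the 2 sets, and were not compared as such. After background correction and quantile normalisation with limma's neqc, the log2 signal was 7.37, 7.95, 7.15 and 6.21 in Cd151+/+ mice and 9.01, 9.67, 9.05 and 8.98 in Cd151-/- mice. Every Cd151-/- mouse lay above every Cd151+/+ mouse, and the Cd151+/+ mice were spread more widely. The Cd151+/+ mean was 7.17 ± 0.73 (SD, n = 4) and that of Cd151-/- mice 9.18 ± 0.33 (SD, n = 4), a log2 difference of 2.01 with a standard error of 0.35. On the linear scale this is 4.02-fold.

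The size of the *Gdnf* difference varied between the 2 sets of arrays. It was 2.66 on the arrays of higher background, where the lowest Cd151+/+ and the highest Cd151-/- mouse lie, and 1.35 on those of lower background. Both are differences of 2 mice against 2 on the log2 scale, and the difference between them was not tested. With 1 mouse left out at a time the difference was between 1.69 and 2.27. Among the 14967 probes detected on at least 1 array, the rise of *Gdnf* was number 2 in size. This rank describes the difference by which the set was chosen and is not support for it.

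The second *Gdnf* probe, ILMN_2701617, was detected on none of the 8 arrays. Its signal was 0.825 to 1.06 times the background, with detection p-values from 0.273 to 0.934. The higher *Gdnf* signal thus rests on 1 of the 2 probes, and the part of the transcript that each one reads is not given in the sources used here.

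**Figure D2:**
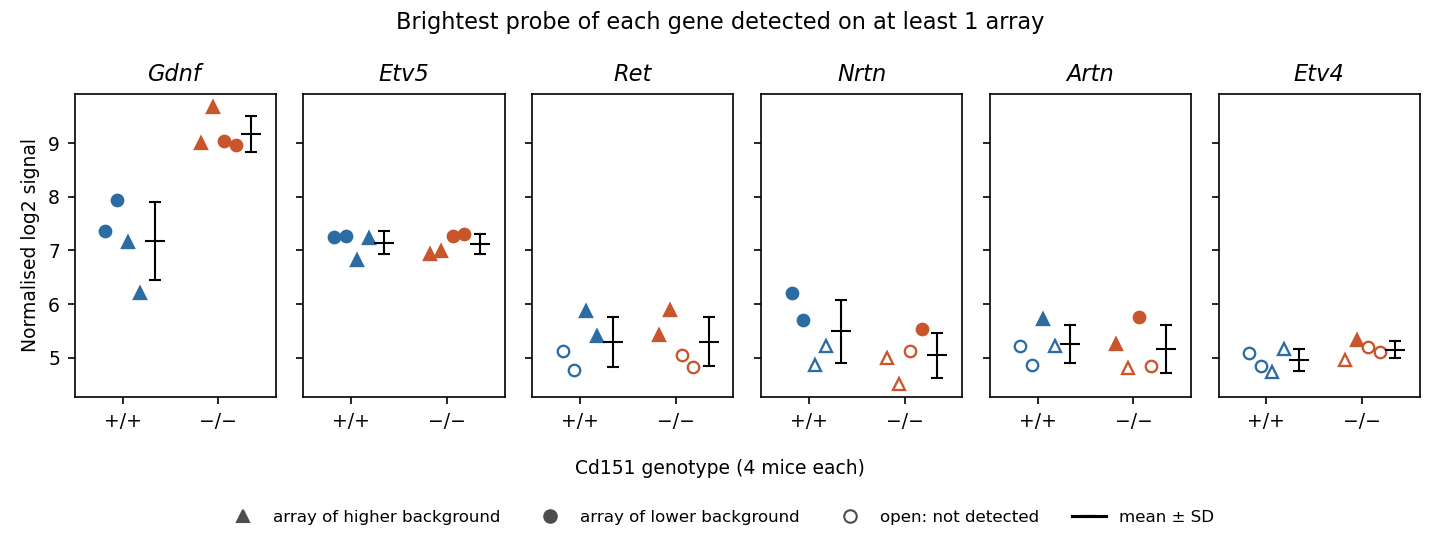
Normalised log2 signal of the brightest probe of the 6 genes detected on at least 1 array, for the 4 mice of each genotype, with mean ± SD beside them. Triangles are arrays of higher background, circles those of lower background, and open symbols are not detected; the genotypes are separate for *Gdnf* (up to 7.95 against at least 8.98) and overlap for the other 5 genes.

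The other 2 ligands were near the background of the arrays in both genotypes. *Nrtn* encodes neurturin, which signals mainly through GFRα2. Its probe had a log2 signal of 6.21, 5.69, 4.86 and 5.21 in Cd151+/+ mice 1 to 4 and of 5.00, 4.52, 5.13 and 5.54 in Cd151-/- mice 1 to 4. It was detected in Cd151+/+ mice 1 and 2 and in Cd151-/- mouse 4, all on arrays of lower background, and the groups overlap. The log2 difference was −0.45 with a standard error of 0.32 and did not pass (Benjamini-Hochberg adjusted p = 0.918 in limma). The difference was −0.22 without Cd151+/+ mouse 1. The 95% interval of the normalised signal reached from 0.448-fold to 1.20-fold of the Cd151+/+ value. The *Nrtn* probe lay at 0.868 to 1.33 times the background, so this interval does not bound the fold of the transcript.

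*Artn* encodes artemin, which signals mainly through GFRα3, and is read by 4 probes. The brightest, ILMN_2941280, was detected in 1 Cd151+/+ mouse and 2 Cd151-/- mice, with log2 signals of 4.85 to 5.73 in Cd151+/+ and 4.80 to 5.76 in Cd151-/- mice. The difference was −0.09 with a standard error of 0.28 (adjusted p = 0.960, limma). The 95% interval of the normalised signal reached from 0.613-fold to 1.43-fold. With this probe at 1.05 to 1.34 times the background, the interval does not bound the fold of the transcript. The sign of the difference changed between the sets, at −0.45 on the arrays of higher and 0.26 on those of lower background. A second probe was detected in 1 Cd151-/- mouse, and the other 2 in none.

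The receptors were at or close to background. *Ret*, the shared receptor tyrosine kinase, is read by 2 probes, of which ILMN_3043469 was detected on 4 arrays and ILMN_2683393 on none. The log2 signal of the detected probe was 5.12, 4.78, 5.87 and 5.41 in Cd151+/+ mice 1 to 4 and 5.43, 5.89, 5.06 and 4.83 in Cd151-/- mice 1 to 4. The values split by the set of arrays and not by genotype, since *Ret* was detected on all 4 arrays of higher background and on 0 of 4 of lower background, and the 2 sets did not overlap. The genotypes overlap, at a Cd151+/+ mean of 5.29 ± 0.46 and a Cd151-/- mean of 5.30 ± 0.46 (SD, n = 4 each). The log2 difference of 0.01 had a standard error of 0.30 (adjusted p = 0.997, limma), and a 95% interval from 0.635-fold to 1.59-fold. This interval is of the normalised signal and does not bound the fold of the transcript, since the probe lay at 1.02 to 1.61 times the background. Within the sets the difference was 0.02 on the arrays of higher and −0.0038 on those of lower background.

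Detection on exactly the arrays of higher background was seen for 213 of the 25697 probes, and the reverse for 31. *Aqp2*, the water channel of the collecting duct, a segment that derives from the ureteric bud, was also detected on 4 of 4 arrays of higher and 0 of 4 of lower background. Of the other collecting duct markers on the list, *Scnn1g* was detected on 3 and 0 arrays, *Hsd11b2* on 4 and 1, *Aqp3* on 4 and 3 and *Scnn1b* on 4 and 4, while *Elf5* was not detected. Between the genotypes none of the 5 tested markers passed an unadjusted p of 0.05, against 4.3% of all probes. Their summed log2 level, with that of *Elf5*, was 7.86 to 9.02 in Cd151+/+ and 8.10 to 9.06 in Cd151-/- mice. The part of collecting duct RNA and of the array background in the *Ret* signal was not tested.

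*Gfra1*, the preferred co-receptor of GDNF, had a signal of 0.843 to 1.26 times the background and its lowest detection p-value was 0.0551. *Gfra2*, the preferred co-receptor of neurturin, stayed at or below 0.932 times the background. Both were therefore without a measured level in any mouse of either genotype. On each array the dimmest probe called detected had a signal of 1.17 to 1.27 times the background, which bounds what these 2 probes could have shown.

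Of the 2 ETS factors, *Etv5* was above background in all mice, and its genotype means differed by less than the spread between mice. *Etv5* had a log2 signal of 7.26, 7.27, 6.82 and 7.23 in Cd151+/+ mice 1 to 4 and of 6.94, 7.00, 7.27 and 7.31 in Cd151-/- mice 1 to 4. The groups overlap, and the mice on arrays of lower background lie above those of higher background. The means were 7.14 ± 0.21 (SD, n = 4) and 7.13 ± 0.19 (n = 4), with a log2 difference of −0.02 and a standard error of 0.21 (Benjamini-Hochberg adjusted p = 0.992 in limma). A two-sided exact permutation test, which has 70 relabelings and a smallest possible p of 0.0286, gave p = 0.971. The 95% interval reached from 0.719-fold to 1.36-fold. *Etv4*, the closely related factor, was detected in 1 mouse, Cd151-/- mouse 2, at a log2 signal of 5.33. Its measured means were 4.96 ± 0.21 in Cd151+/+ and 5.15 ± 0.15 in Cd151-/- mice (SD, n = 4 each). No fold and no p are given, since no Cd151+/+ array detected it and it passed the filter through 1 Cd151-/- array.

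The Sprouty genes of the list were not detected. *Spry1*, the inhibitor that restrains RET signalling in the ureteric bud, had signals of 0.842 to 1.23 and 0.776 to 0.979 times the background at its 2 probes, and *Spry2* of 0.832 to 1.03 times. No difference was tested for these probes, because no array gave them a detection p-value of 0.05 or lower.

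Beside *Gdnf*, by which the set was chosen, 4 of the 10 genes were detected on at least 1 array of each genotype, *Nrtn*, *Artn*, *Ret* and *Etv5*. Of these only *Etv5* was detected on all 8 arrays. The signs of *Nrtn*, *Artn* and *Ret* rest in part on signals not above background. Among the 4 genes 1 was higher and 3 were lower in Cd151-/- mice, with a median log2 difference of −0.06. Over all 14967 probes tested the median was −0.0073 and 49.1% were higher. In limma 0 of the 4 passed an adjusted p of 0.05, against 0.0334% of all probes, and 0 passed an unadjusted p of 0.05, against 4.3%. None of these 4 had groups that did not overlap, against 2.31% of all probes, of which 0.855% lay higher and 1.46% lower in Cd151-/- mice. With so few genes these counts are near those of the platform.

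**Figure D3:**
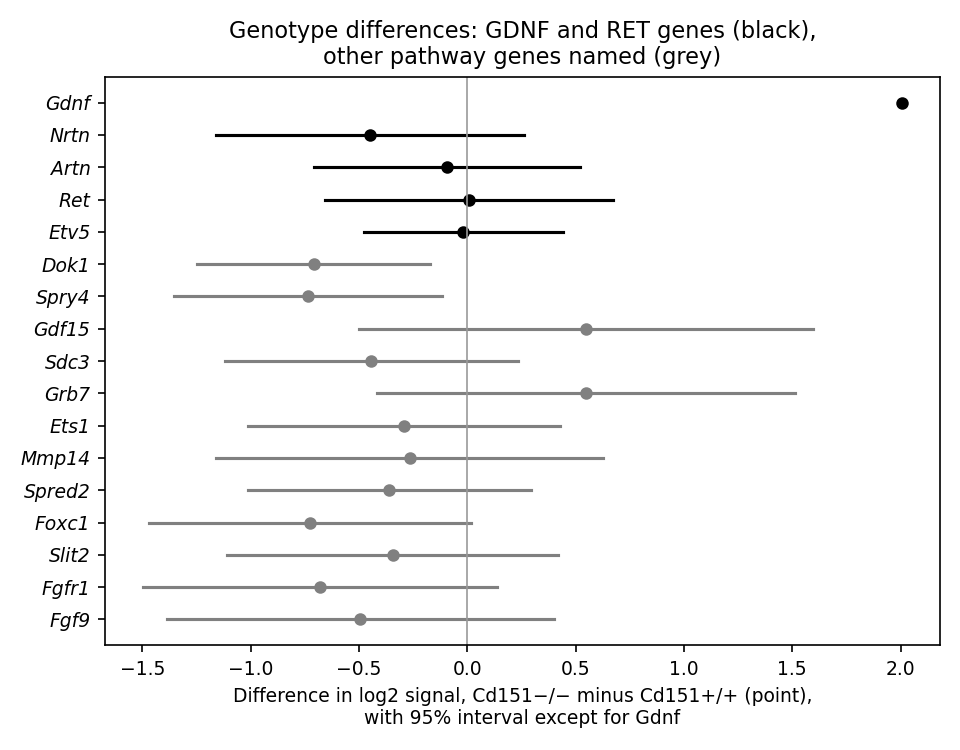
Difference in normalised log2 signal, Cd151-/- minus Cd151+/+, for the 5 genes detected in both genotypes (black) and 12 other genes of the pathway (grey), with limma's 95% interval except for *Gdnf*, which has no test. *Gdnf* stands at 2.01 and the other 4 black points between −0.45 and 0.01, with intervals that hold 0.

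The other genes of the pathway were taken from 6 lists written by role, 87 genes in all, of which 81 have a row on the array and 54 were detected on at least 1 array. In limma 0 of the 54 passed Benjamini-Hochberg adjustment over all probes, with a lowest adjusted p of 0.918. At an unadjusted p of 0.05, 0 were higher and 2 lower in Cd151-/- mice, against 1.69% and 2.61% of all probes. Of the 54 genes 19 were higher and 35 lower, with a median log2 difference of −0.11. Over all tested probes 49.1% were higher and the median was −0.0073, and the tilt of the lists was not tested. None of the 54 had groups that did not overlap, against 2.31% of all probes. The count of 2 lower genes became 4 without Cd151+/+ mouse 3, where 496 of 14783 probes were lower at this threshold. It became 1 without Cd151-/- mouse 1 (218 of 14766 probes) or mouse 4 (248 of 14777 probes). Without Cd151-/- mouse 3 it became 6, where 763 of 14771 probes were lower. The count became 8 of 54, with 0 higher, when the fit held the background set as a block. In that fit 910 of the 14967 probes were lower and 780 higher at the same threshold, 11.3% in either direction.

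Among the feedback inhibitors 7 of 10 genes were tested, with a median difference of 0.02. *Spry4*, a further Sprouty inhibitor, was detected in all mice, unlike *Spry1* and *Spry2*. Its log2 signal was 8.32, 8.83, 8.34 and 8.64 in Cd151+/+ mice 1 to 4 and 7.36, 7.97, 8.47 and 7.39 in Cd151-/- mice 1 to 4. Cd151-/- mouse 3 lay within the range of the Cd151+/+ mice and the other 3 below it. The difference was −0.74 with a standard error of 0.28 (unadjusted p = 0.0243, adjusted p = 0.918, limma), and the exact permutation test gave p = 0.0857. The unadjusted p rose above 0.05 when Cd151+/+ mouse 2 or 4 or Cd151-/- mouse 1 or 4 was left out, to at most 0.0752, with adjusted p-values of 0.0885 to 1.00 over all alternatives. *Spred2*, an inhibitor of the Ras to MAP kinase step, had a difference of −0.36 with a standard error of 0.30, and of −0.20 without Cd151-/- mouse 4 and −0.56 without Cd151-/- mouse 2.

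Among the adaptors and the kinase cascade 21 of 30 genes were tested, 7 higher and 14 lower. *Dok1*, a docking protein that binds activated receptor tyrosine kinases, had log2 signals of 8.02, 7.82, 7.98 and 7.29 in Cd151+/+ mice 1 to 4 and 7.08, 6.95, 7.46 and 6.77 in Cd151-/- mice 1 to 4. The groups overlap through Cd151+/+ mouse 4 and Cd151-/- mouse 3. The difference was −0.71 with a standard error of 0.24 (unadjusted p = 0.0146, adjusted p = 0.918, limma), and the exact permutation test gave p = 0.0571. *Grb7*, an adaptor that binds phosphorylated RET, had the largest positive difference of this list, 0.55 with a standard error of 0.44 (adjusted p = 0.918). Its sign turned between the sets, at 1.36 on the arrays of lower and −0.27 on those of higher background, and it was 0.19 without Cd151+/+ mouse 2 and 0.87 without Cd151+/+ mouse 4. *Akt1*, *Map2k1*, *Plcg1*, *Sos1* and *Cd2ap* were among the 7 genes of the list with a row that were detected on no array, although most of them are used by many cell types, so that lack of detection on this platform does not show that a transcript is absent.

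Of the other ligands and receptors of the family 3 of 7 were tested, *Gdf15*, *Ncam1* and *Sdc3*, and *Pspn*, *Gfra3*, *Gfra4* and *Gfral* were not detected. *Gdf15*, the ligand of GFRAL, differed by 0.55 with a standard error of 0.48, and *Sdc3*, a heparan sulfate proteoglycan that binds GDNF, by −0.44 with a standard error of 0.31 (adjusted p = 0.918 for each, limma). *Gdf15* was 0.15 without Cd151-/- mouse 4 and 0.84 without Cd151-/- mouse 2. No co-receptor gene of the GFRα type, *Gfra1* to *Gfra4* or *Gfral*, was therefore measured above background in these glomeruli.

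Among the transcription factors and targets downstream of RET 6 of 9 genes were tested, 1 higher and 5 lower, with a median of −0.28. *Ets1* differed by −0.29 and *Mmp14* by −0.27, with adjusted p-values of 0.918 and 0.923 in limma. Without Cd151+/+ mouse 2 *Ets1* was −0.09, without Cd151-/- mouse 3 −0.57, and without Cd151-/- mouse 4 *Mmp14* was 0.16. *Wnt11* and *Myb*, both induced by RET in the ureteric bud, were not detected. Of the genes that set the level and domain of *Gdnf* in kidney development 11 of 20 were tested, with a median of −0.05. *Foxc1*, which restricts the domain of *Gdnf*, differed by −0.73 with a standard error of 0.34, and *Slit2*, a ligand of ROBO2 in the same restriction, by −0.34 with a standard error of 0.35 (adjusted p = 0.918 for each, limma). *Slit2* was −0.05 without Cd151+/+ mouse 4 and −0.61 without Cd151+/+ mouse 3, and *Foxc1* was −0.43 without Cd151-/- mouse 4. *Pax2*, *Six2*, *Six4*, *Hoxa11*, *Hoxc11* and *Grem1* were not detected. Of the FGF ligands and receptors, which share the Etv and Sprouty genes as downstream responses, 6 of 11 were tested. *Fgfr1* differed by −0.68 with a standard error of 0.37 and *Fgf9* by −0.49 with a standard error of 0.41 (adjusted p = 0.918 for each, limma). *Fgf9* was −0.94 on the arrays of higher and −0.05 on those of lower background, −0.96 without Cd151+/+ mouse 2 (unadjusted p = 0.0053) and −0.24 without Cd151+/+ mouse 4.

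**Figure D4:**
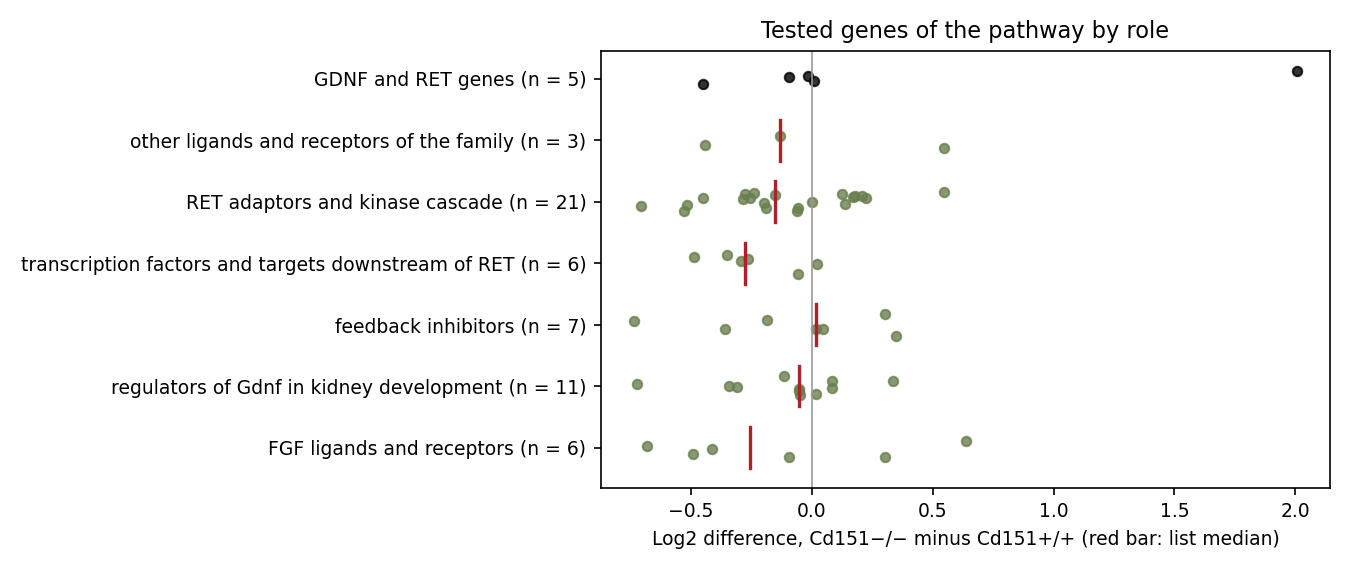
Difference in normalised log2 signal, Cd151-/- minus Cd151+/+, of the 5 GDNF and RET genes detected in both genotypes (black) and of the 54 tested genes of the 6 pathway lists (green), by role, with the median of each pathway list as a red bar; points are spread vertically so that they can be told apart. *Gdnf*, at 2.01, lies apart from all others, which lie between −0.74 and 0.64.

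The genes whose pattern over the 8 arrays was most like that of *Gdnf* were *Spon2* (Pearson r = 0.961), *Akap2* (0.942), *Fbxo31* (0.930), *Hn1* (0.927) and *Calca* (0.914), given as a description over 8 arrays that share the genotype. For each of them every Cd151-/- mouse lay above every Cd151+/+ mouse, so that the correlation holds the difference between the genotypes. After each genotype's mean was taken off, r was 0.783 for *Spon2*, 0.681 for *Akap2*, 0.720 for *Fbxo31*, 0.590 for *Hn1* and 0.518 for *Calca*. These genes were picked for the highest r over the same 8 arrays, which includes the likeness within genotypes. The values within genotypes are thus in part set by that choice and are no separate evidence of a shared pattern. *Akap2* was detected in every Cd151-/- mouse and in 0 of 4 Cd151+/+ mice, so that its likeness rests in part on signals not above background. *Spon2*, which encodes the matrix protein mindin, had a log2 difference of 2.51, and *Calca*, which encodes the peptides calcitonin and CGRP, one of 0.95. Within the 10 genes the correlation with *Gdnf* was −0.36 for *Nrtn*, −0.28 for *Artn*, −0.04 for *Ret*, 0.38 for *Etv4* and −0.08 for *Etv5*. With the genotype means taken off it was 0.13, −0.36, −0.10, −0.23 and −0.07 in the same order, so that the sign turned for *Nrtn* and *Etv4*. Only *Etv5* of these was detected on all 8 arrays, so the correlations of *Nrtn*, *Artn*, *Ret* and *Etv4* rest in part on signals not above background.

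Markers of the cells that the isolates can hold were also compared between the genotypes. Of the smooth muscle list *Acta2* was higher in Cd151-/- mice, by 0.71 on the log2 scale at an unadjusted p of 0.0185. *Tagln*, at 0.45, and *Myh11*, at −0.52, did not pass, and *Cnn1* was not detected. The summed log2 level of that list was 11.28 to 11.84 in Cd151+/+ and 11.38 to 12.26 in Cd151-/- mice. Of the erythroid list *Alas2* and *Hba-a1* were lower, at unadjusted p-values of 0.00519 and 0.0276, with *Hbb-b1* not past that threshold, and the summed level was 15.19 to 15.60 against 14.10 to 15.18. For proximal tubule, 0 of 6 tested markers passed an unadjusted p of 0.05, and the summed level was 14.27 to 15.79 against 15.29 to 16.11. Of the nerve and Schwann cell list *Ngfr* was detected in 1 mouse of each genotype, and *S100b* was not detected. For the mesangial list 1 of 4 tested markers, *Pdgfrb*, was lower, with a log2 difference of −0.74 at an unadjusted p of 0.0399, while *Serpine2* at 0.52, *Des* at −0.35 and *Gata3* at −0.05 did not pass. For the podocyte, glomerular endothelial, loop and distal tubule and leukocyte lists 0 of 5, 0 of 6, 0 of 4 and 0 of 4 passed. Their median log2 differences were −0.19, −0.32, −0.50 and −0.09 in this order, and that of the proximal tubule list was 0.55. The summed level of the loop and distal tubule list was 14.74 to 15.63 in Cd151+/+ and 14.26 to 15.03 in Cd151-/- mice. At an unadjusted p of 0.05 in limma, 1.69% of all 14967 tested probes were higher and 2.61% lower in Cd151-/- mice. Over all marker lists 0 genes passed Benjamini-Hochberg adjustment in limma, against 0.0334% of all probes. The part of these cells in the *Gdnf* signal was not tested.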

How the data were processed

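Glomerular RNA of 4 Cd151+/+ and 4 Cd151-/- mice was amplified, biotin-labelled and hybridised to Illumina MouseRef-8 v1.1 BeadChips. The authors deposited mean signal intensity per probe, exported from GenomeStudio without background subtraction or normalisation, with 1 detection p-value beside every signal, in steps of 1 over 798. The study itself normalised by cubic spline and tested with SAM, which was not run here. The genotype of each array was taken from the labels. The mice are separate animals, and slide and hybridisation batch are not given in the sources used here.

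Here intensities were background-corrected (normexp, background inferred from the detection p-values, offset 16), quantile-normalised and log2-transformed with neqc of limma 3.58.1 in R 4.3.3, since quantile scaling assumes a like distribution of signals on all arrays. All probes detected (p-value at or under 0.05) on any of the 8 arrays, 14967 of 25697, were fitted with lmFit and eBayes without covariates, with Benjamini-Hochberg adjustment over all of them, after the fit had been tested on simulated data. Standard errors, 95% intervals and p-values are from this fit. Single probes were also tested by a two-sided exact permutation test over 70 relabelings. A gene is given by its probe of highest mean. No level was compared between probes.

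The 10 genes, the pathway and marker lists and the split of arrays by background were chosen with earlier results of these data known. Of the pathway lists, genes at an unadjusted p of 0.05 or lower were named, and per list the 2 of largest absolute difference among those detected on all arrays of a genotype. Of all other genes the 5 of highest Pearson r with *Gdnf* were named. Genes given only as detected or not detected, and markers, stand outside this rule.

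The alternatives were no background correction, cubic spline normalisation, an offset of 50, 75th percentile scaling, no or a stricter detection filter, a trended and robust variance, array weights, mouse number or array set as a block, the other probe of a gene, and each mouse left out.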

Additional observations from a re-analysis of the deposited data

Results flagged for a closer look

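In 3 of 38 groups of 4 mice checked, 1 mouse lay far from the other 3, past Dixon's 95% limit for the gap to the nearest neighbour over the range of the group. Chance alone puts about 1 in 20 groups past this limit. For *Gdnf* it was Cd151-/- mouse 2, at a log2 signal of 9.67, where the other Cd151-/- mice lay at 8.98 to 9.05, and without it the difference between the genotypes was 1.84. For *Etv5* it was Cd151+/+ mouse 3, at 6.82 against 7.23 to 7.27. For *Mmp14* it was Cd151-/- mouse 4, at 9.94 against 11.63 to 11.69, and without it the difference was 0.16 in place of −0.27. The cause was not tested.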

How the results depend on the processing

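The higher *Gdnf* signal of Cd151-/- mice kept its direction under all 20 alternatives, at log2 differences of 1.35 within the arrays of lower background to 2.66 within those of higher background, and 1.69 to 2.27 with 1 mouse left out. In each of 18 alternatives 0 of the other members and 0 pathway genes passed an adjusted p of 0.05 in limma. The other probes of *Gdnf*, *Ret* and *Spry1* and 2 of *Artn* were detected on no array and gave no value.

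Some differences changed sign. *Etv4*, not above background in Cd151+/+ mice, was −0.043 with 75th percentile scaling, where its measured means differed by 0.19 in the main processing. *Ret* was −0.11 with the same scaling, which moved the median of all probes to −0.07. With array weights *Artn* was 8.58e-05 and *Mmp14* 0.063. With 1 mouse left out *Artn* was between −0.31 and 0.065, *Etv5* between −0.13 and 0.044, *Ret* between −0.17 and 0.20 and *Mmp14* between −0.42 and 0.16. The causes were not tested. At an unadjusted p of 0.05, array weights called 1 member, *Nrtn* (adjusted p 0.101, range over its alternatives 0.101 to 1.00), and 5 higher and 13 lower pathway genes, where 32.2% of all probes passed. The array set as a block gave 8 lower pathway genes, where 910 of 14967 probes were lower. With 1 mouse left out there were 0 to 1 higher and 1 to 6 lower pathway genes, and 2.3% to 9.42% of all probes passed in either direction.

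The labels number the mice of each genotype and do not say whether mice of the same number belong together. The deviations of same-numbered mice correlated at −0.58 to −0.0086. No Cd151+/+ mouse correlated best with the Cd151-/- mouse of its number. Same-numbered mice always lie in different background sets, so these correlations can neither show nor exclude a pairing by number. With the number as a replicate block the *Gdnf* difference was 2.01, 0 members and 2 pathway genes passed an unadjusted p of 0.05, and 4 in place of 5 of all probes passed adjustment.

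The signal over background sets the limit. Of the 16 probes 9 were not detected, and *Nrtn*, *Artn*, *Ret* and *Etv4* lay at 0.868 to 1.61 times the background at their brightest probe, where neither a level nor a small difference can be read.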
